A study of Mus musculus with 80 samples.

Results

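The experiment compared the deaminases ABE8e and ABEmax, each fused to the Cas9 variant SpG, at the splice donor of exon 8 of *Ptbp1* in mouse Hepa1-6 cells. Its samples were those labelled with sgRNA7 as SpG-ABE8e, SpG-ABEmax or control, 3 of each, which is 9 of the 80 samples of the series. The series tests sgRNAs against *Ptbp1* splice sites by sequencing PCR amplicons of genomic DNA, and each sample is a table of alleles with a count of reads for each. Hepa1-6 is an established hepatoma line from a C57L mouse. All 9 samples were transfected in 96-well plates with 400 ng of DNA by lipofection. The edited groups received plasmids for the base editor and for the sgRNA, and the control received the sgRNA alone. No step that enriches transfected cells is described, so each share of reads covers transfected and untransfected cells together. RNA was not measured in these samples.

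*Ptbp1* encodes polypyrimidine tract binding protein 1, an RNA-binding protein that regulates splicing and represses many neuronal exons. An adenine base editor joins a nickase form of Cas9 to an evolved TadA deaminase, which converts adenine to inosine on the strand displaced by the sgRNA, and inosine is read as guanine. ABEmax carries an earlier form of the deaminase and ABE8e a later form selected for faster deamination. Both are also known to act on cytosine at a low rate. SpG is an engineered *Streptococcus pyogenes* Cas9 (SpCas) that accepts a wider range of protospacer adjacent motifs (PAMs), the bases next to the protospacer that Cas9 must bind.

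The sgRNA strand and the splice junction are printed here because every value that follows is counted on them. The protospacer of 20 bases had a single exact match in the mouse genome build GRCm39, at chr10:79696014-79696033 on the minus strand, next to the PAM TGG. Positions are counted from 1 at the 5′ end of the protospacer, and a change such as A4G gives the reference base on that strand, then the position, then the base found in the read. The line for the protospacer has the 5 adenines in capitals, and the other lines show the 40-base window on the sense strand, chr10:79696004-79696043, before and after the target edit with the donor dinucleotide in capitals.
Protospacer: AAtAcctgcggcctgAgggA
Sense strand, reference: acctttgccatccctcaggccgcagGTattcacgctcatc
Sense strand, target edited: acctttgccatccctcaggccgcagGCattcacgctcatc

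Exon 8 spans chr10:79695951-79696028 on the plus strand and has 78 bases, a multiple of 3, and its last base is the first base of a codon. In the GENCODE M39 annotation, 7 of the 30 *Ptbp1* transcripts used this donor, 3 of them protein coding, and 14 had an intron that spans exon 8, 8 of them protein coding. The target adenine, position 4, lies at 79696030 and pairs with the T of the GT at the start of intron 8. Positions 1 and 2 lie at bases 5 and 4 of that intron, and their editing would change it outside the GT. Position 5 pairs with the G of the GT and position 6 with the last base of the exon. Positions 16 and 20 are exonic, where A16G would be silent (P319=) and A20G would change isoleucine to threonine (I318T).

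The tables held 2313 to 3036 reads in the controls, 2370 to 2626 with SpG-ABE8e and 2730 to 3568 with SpG-ABEmax. A count of 0 therefore allowed a share of up to 0.0841% to 0.13% of reads, taking 3 reads as the limit. Each table held 49 to 104 distinct alleles of the window, most of them single reads, where deletions that remove the same window bases were counted as 1 allele. The 9 tables together held 392, of which 3 occurred in all 9. With 3 samples against 3, the exact permutation test allows no p below 0.1, so no comparison of a pair of groups here could pass 0.05, and the values of all samples are given.

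SpG-ABE8e edited the target adenine in more reads than SpG-ABEmax in every sample. With SpG-ABE8e, 66.8%, 66.9% and 69.1% of reads carried A4G (67.6% ± 1.29, SD, n = 3). With SpG-ABEmax the shares were 51.8%, 46.7% and 42.4% (47.0% ± 4.71, SD, n = 3). The groups did not overlap, and the samples of SpG-ABEmax spread over a wider range than those of SpG-ABE8e. Their means differed by 20.6 percentage points, and the 9 differences between a sample of each group ran from 14.96 to 26.66 (exact permutation p = 0.1, the smallest that 3 against 3 can give, and 0.12 after Benjamini-Hochberg adjustment over 18 tests). In the controls, 2, 2 and 3 reads carried A4G, or 0.0659%, 0.0865% and 0.106%. Both editors stood above every control sample (exact permutation p = 0.1 for each, adjusted p = 0.12). The Wilson 95% interval of SpG-ABE8e replicate 2, the edited sample with the fewest reads, was 65.0% to 68.8%, which covers counting error only.

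**Figure D1:**
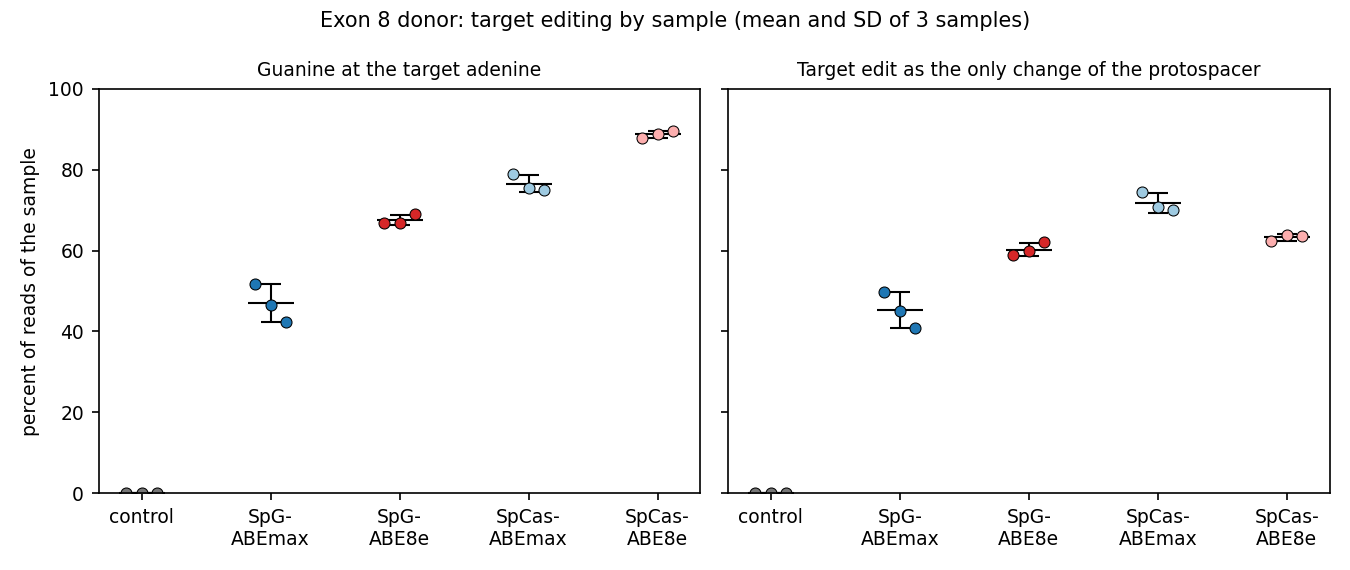
Percent of reads with guanine at the target adenine (left) and with the target edit as the only change of the protospacer (right) in each sample, with the mean and SD of 3 samples as a bar. For SpG, the ABE8e samples lie above the ABEmax samples in both panels, at 66.8% to 69.1% against 42.4% to 51.8% on the left and at 58.9% to 62.1% against 40.9% to 49.9% on the right.

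The adenine at position 2 was the main bystander, and it separated the editors more than the target did. A2G was found in 4.64%, 4.18% and 4.76% of reads with SpG-ABE8e (4.53% ± 0.308, SD, n = 3). It was found in 0.645%, 1.01% and 0.659% with SpG-ABEmax (0.772% ± 0.207, SD, n = 3), and in 1 read of each control sample. All samples of SpG-ABE8e lay above all samples of SpG-ABEmax, with a ratio of means of 5.87 for A2G against 1.44 for the target (exact permutation p = 0.1, adjusted p = 0.12). Counted only over target-edited reads, the share of A2G was 6.95%, 6.24% and 6.84% with SpG-ABE8e and 1.03%, 1.56% and 1.21% with SpG-ABEmax, again without overlap (6.68% ± 0.381 against 1.26% ± 0.269, SD, n = 3; exact permutation p = 0.1, adjusted p = 0.12).

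With SpG-ABE8e, A2G stood almost only on reads that also carried the target edit. Of its reads with A2G over 3 samples, 341 had A4G, 1 in replicate 3 had neither A nor G at position 4, and none was among the 835, 777 and 798 reads with the unedited adenine. With SpG-ABEmax, 56 reads with A2G had A4G and 17 had the unedited adenine, 4, 9 and 4 in the 3 samples. The count of 0 with SpG-ABE8e allows 0.359% to 0.386% of the unedited reads of a sample. This exceeds the shares in SpG-ABEmax replicates 1 and 3 (0.236% and 0.258%) but not that in replicate 2 (0.54%). Reads with A2G as their only edited adenine were 0.17% of all reads with SpG-ABEmax (0.112%, 0.253% and 0.147%), above the 0.0329% to 0.0432% of the controls in all 3 samples. No test was made of this difference.

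The other adenines of the protospacer changed little. A1G was found in 0.433%, 0.253% and 0.762% of reads with SpG-ABE8e and in 0.224%, 0.316% and 0.33% with SpG-ABEmax, which overlap. A single read, in control replicate 3, carried it among the controls, so that every edited sample lay above every control sample. A16G was at 0.118% to 0.228% with SpG-ABE8e, 0.11% to 0.158% with SpG-ABEmax and 0.0432% to 0.106% in the controls. A20G was found in no read with SpG-ABE8e and in at most 2 reads of any other sample. Reads with any of these 3 edits made up 0.64% ± 0.315 with SpG-ABE8e and 0.426% ± 0.056 with SpG-ABEmax (SD, n = 3), and the groups overlapped (exact permutation p = 0.3, adjusted p = 0.318). Without SpG-ABE8e replicate 3 that difference fell from 0.214 to 0.0394 percentage points, and without replicate 2 it was 0.345. The 5 adenines of the window outside the protospacer were read as guanine in at most 0.152% of reads of any SpG-ABE8e sample, 0.14% of any SpG-ABEmax sample and 0.0708% of any control.

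**Figure D2:**
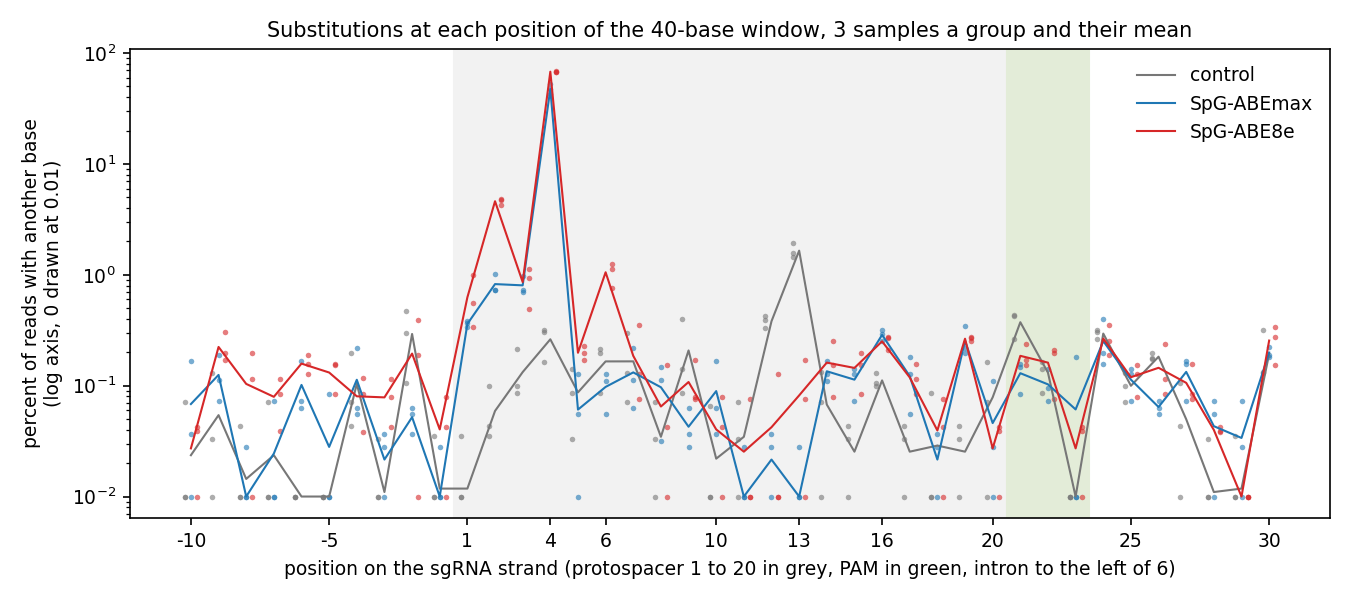
Percent of reads with a substitution at each of the 40 positions of the window, on a log axis with 0 drawn at 0.01. Points are the 3 samples of a group and lines their means. The edited groups peak at position 4, SpG-ABE8e stands above SpG-ABEmax at positions 2, 4 and 6, and the control samples are highest at position 13.

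The alleles that carry these values are shown next, on the sgRNA strand with the changed bases in capitals, because they show which edits share a read. They are the unchanged window and the changed alleles that reached a mean of 0.2% of reads in an edited group. T3G alone and A4C hold no A-to-G edit, and both were also read in every control sample.
Unchanged: aatacctgcggcctgaggga
A4G: aatGcctgcggcctgaggga
A2G with A4G: aGtGcctgcggcctgaggga
A1G with A4G: GatGcctgcggcctgaggga
A4G with C6T: aatGcTtgcggcctgaggga
A4G with C6G: aatGcGtgcggcctgaggga
T3G with A4G: aaGGcctgcggcctgaggga
T3G: aaGacctgcggcctgaggga
A4C: aatCcctgcggcctgaggga

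The allele with A4G alone was the most abundant edited allele in both groups. It made up 57.8%, 59.0% and 61.4% of reads with SpG-ABE8e and 49.3%, 44.6% and 40.3% with SpG-ABEmax. The allele with A2G and A4G followed with SpG-ABE8e, at 4.09%, 3.92% and 3.92%, while with SpG-ABEmax it was at 0.533%, 0.632% and 0.513%. The window was unchanged in 31.6%, 31.9% and 29.4% of reads with SpG-ABE8e, in 45.5%, 50.6% and 54.8% with SpG-ABEmax and in 95.5% to 96.1% in the controls. Together, the 11 alleles at or above a mean of 0.2% in a group, which include C13A and C12A in the controls, held 95.4% to 97.6% of the reads of each sample. The remaining 43 to 96 alleles of a sample were mostly single reads.

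Reads in which the target edit was the only change of the protospacer were more frequent with SpG-ABE8e. Their share was 58.9%, 59.8% and 62.1% against 49.9%, 45.0% and 40.9% with SpG-ABEmax, a difference of means of 15.03 percentage points without overlap (exact permutation p = 0.1, adjusted p = 0.12). As a share of the target-edited reads the order turned. With SpG-ABE8e 88.2%, 89.4% and 90.0% of target-edited reads had no other change of the protospacer, and with SpG-ABEmax 96.3%, 96.3% and 96.5% (89.2% ± 0.927 against 96.4% ± 0.0963, SD, n = 3; exact permutation p = 0.1, adjusted p = 0.12). Reads with 2 adenines of the protospacer edited made up 4.68%, 4.30% and 4.99% with SpG-ABE8e and 0.757%, 0.948% and 0.733% with SpG-ABEmax. Reads with A1G, A2G and A4G together numbered 5, 3 and 7 with SpG-ABE8e and 0, 2 and 0 with SpG-ABEmax.

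**Figure D3:**
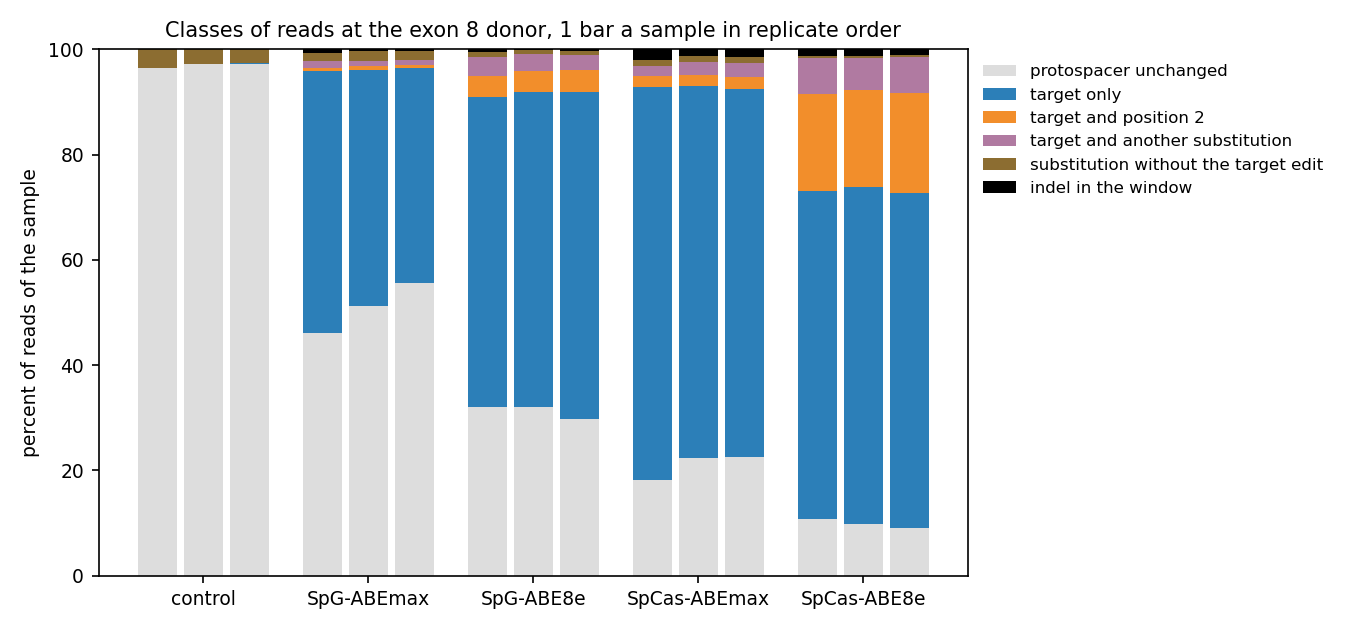
Reads of each sample divided into classes that add to 100%, with 1 bar for each of the 3 samples of a group. The orange class, the target edit with position 2, is 3.92% to 4.13% of reads in the SpG-ABE8e bars and 0.513% to 0.664% in the SpG-ABEmax bars.

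The cytosine at position 6, the last base of the exon on the opposite strand, was changed with SpG-ABE8e. A base other than C was read there in 1.26%, 1.14% and 0.762% of reads with SpG-ABE8e, in 0.0561%, 0.126% and 0.11% with SpG-ABEmax and in 0.198%, 0.0865% and 0.212% of control reads. SpG-ABE8e lay above both other groups in every sample, and SpG-ABEmax overlapped the controls (exact permutation p = 0.1 against SpG-ABEmax, adjusted p = 0.129 over 44 tests chosen after the data were seen). C6T accounted for 0.748%, 0.802% and 0.609% of reads with SpG-ABE8e, against at most 0.126% in any sample of SpG-ABEmax and 0.0708% in any control. C6G accounted for 0.472%, 0.295% and 0.0762% with SpG-ABE8e, against at most 0.0733% in any SpG-ABEmax sample, so that its lowest sample lay close to the other group. In the coding sequence spliced at this donor, C6T would change glycine to serine (G323S) and C6G glycine to arginine (G323R). Most of these reads also carried A4G in the donor, and RNA was not measured, so no protein product is known.

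These changes stood on target-edited reads. Of the SpG-ABE8e reads with C6T, 53 carried A4G, 1 had neither A nor G at position 4 and none had the unedited target adenine. Of those with C6G, 20 carried A4G and 1 had the unedited adenine. C5T, at the G of the donor dinucleotide, was found in 3, 4 and 5 reads with SpG-ABE8e, all 12 with A4G, in no read with SpG-ABEmax and in 2 control reads. It was on 0.177% to 0.276% of target-edited reads with SpG-ABE8e, less than the 0.359% to 0.386% that 0 unedited reads allow in a sample. A change of position 6 was found in 1.89%, 1.64% and 1.05% of target-edited reads with SpG-ABE8e and in 0.0541%, 0.203% and 0.0864% with SpG-ABEmax, so the groups also differed without overlap per edited read (1.52% ± 0.431 against 0.115% ± 0.0784, SD, n = 3; exact permutation p = 0.1, adjusted p = 0.129). The other 3 cytosines of the protospacer were read as T in at most 0.0844% of reads of any SpG-ABE8e sample.

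**Figure D4:**
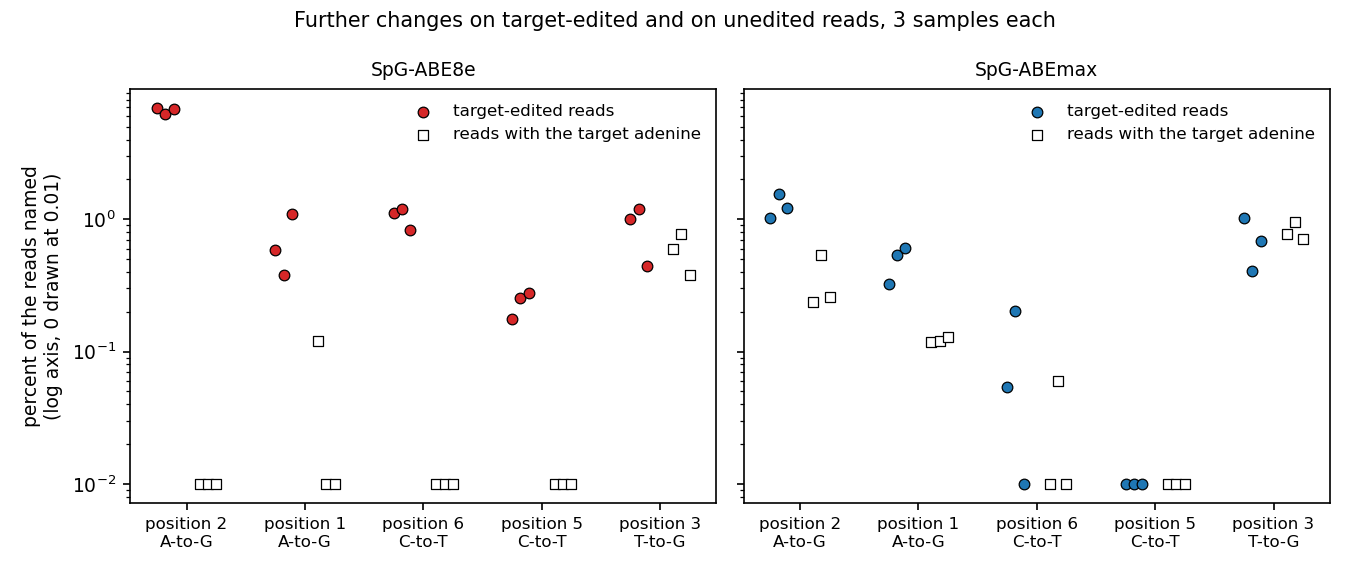
Percent of target-edited reads (circles) and of reads with the unedited target adenine (squares) that carry a second change, on a log axis with 0 drawn at 0.01, for the 3 samples of each editor. With SpG-ABE8e, A-to-G at position 2 and C-to-T at positions 5 and 6 are at 0 among reads with the unedited target adenine. For position 5 a count of 0 there allows 0.359% to 0.386%, more than its share of target-edited reads. T-to-G at position 3 is found on both kinds of read.

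Over all cytosines of the protospacer, 1.53%, 1.73% and 1.14% of reads had a change with SpG-ABE8e and 0.196%, 0.316% and 0.183% with SpG-ABEmax (exact permutation p = 0.1, adjusted p = 0.12). The controls were higher than both, at 2.77%, 2.16% and 2.09%. C13A, the most frequent of these changes there, was read in 1.91%, 1.43% and 1.27% of control reads and in at most 0.0844% of any edited sample. T3G ran the other way. It was in 0.866%, 1.05% and 0.457% of reads with SpG-ABE8e, in 0.897%, 0.695% and 0.696% with SpG-ABEmax and in 0.0865% to 0.106% of control reads. The editors overlapped in T3G (exact permutation p = 1, adjusted p = 1 over the 44), and it was on 44 target-edited and 14 unedited reads with SpG-ABE8e and on 33 and 40 with SpG-ABEmax. G19T was in 0.118% to 0.316% of reads of the edited samples and in no control read. The control libraries thus differed from the edited libraries in changes other than A-to-G, and how far this touches the comparisons with the control was not tested.

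Of the 120 possible substitutions of the window, 14 did not overlap between the editors, or 11.7%. Where 2 groups of 3 do not differ and no values tie, the chance of such a separation is 0.1, so this count alone does not set the editors apart. Of them, 13 were higher with SpG-ABE8e (10.8% of the 120) and 1 was lower (0.833%). Of the 5 adenines of the protospacer, 2 were among them as A-to-G, at positions 2 and 4, and of the 5 cytosines, 3 were among them as C-to-T, at positions 5, 6 and 9. The change at position 9, C9T, was in at most 0.0844% of reads of any SpG-ABE8e sample and overlapped the control, where replicate 1 had 0.0659%. Besides A4G, A2G and C6T, the highest mean among the 14 was 0.281% of reads, for C6G. The single change that was lower with SpG-ABE8e, T21C, had a mean of 0.0426% with SpG-ABEmax. Against the control, 31 substitutions did not overlap with SpG-ABE8e (25.8%), 24 of them higher (20%) and 7 lower (5.83%). With SpG-ABEmax 24 did not overlap (20%), 16 of them higher (13.3%) and 8 lower (6.67%). These shares include the changes by which the control libraries differ. With only alleles of at least 0.2% of reads, 3 substitutions remained between the editors, all of them among the 14.

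The target adenine was seldom read as another base. It was read as C or T in 0.236%, 0.169% and 0.419% of reads with SpG-ABE8e, in 0.252%, 0.411% and 0.476% with SpG-ABEmax and in 0.0988%, 0.216% and 0.212% of control reads. The editors overlapped (exact permutation p = 0.3, adjusted p = 0.318).

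Insertions and deletions were rare, and their share in the window overlapped between the editors. Reads with an indel in the window made up 0.551%, 0.127% and 0.267% with SpG-ABE8e (0.315% ± 0.216, SD, n = 3). With SpG-ABEmax they made up 0.673%, 0.284% and 0.33% (0.429% ± 0.212, SD, n = 3; exact permutation p = 0.5, adjusted p = 0.5). The 9 differences between samples ran from -0.546 to 0.267 percentage points, and without SpG-ABEmax replicate 1 the difference of means turned from -0.114 to 0.00769. Each control sample held 1 such read, or 0.0329% to 0.0432%, below every edited sample (exact permutation p = 0.1 for each editor, adjusted p = 0.12). The excess of SpG-ABE8e over the controls fell from 0.278 to 0.159 percentage points without its replicate 1.

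Indel reads that reached within 3 bases of the predicted cut between positions 17 and 18 did not overlap between the editors. Their share was 0.157%, 0.0422% and 0.114% with SpG-ABE8e and 0.504%, 0.19% and 0.22% with SpG-ABEmax. The difference of means was -0.20 percentage points (exact permutation p = 0.1, not adjusted). Deletions of any length that remove a base in this range are counted. With SpG-ABEmax, 17 of the 30 such reads had lost the whole window, and with SpG-ABE8e 1 of 8. This class thus overlaps with the long deletions described below. The controls were at 0.0329%, 0.0432% and 0% in this class, so that SpG-ABE8e replicate 2 lay below control replicate 2. The excess of SpG-ABE8e over the controls was 0.0792 percentage points (exact permutation p = 0.2, not adjusted). By the base counts of insertions and deletions that the tables list, which are not limited to the window, the shares were 0.549% to 0.826%, 0.659% to 1.09% and 0.432% to 0.602%, so that SpG-ABE8e overlapped the controls.

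The kinds of indel differed more than their total. Deletions of 10 or more bases of the window were 3, 3 and 2 reads with SpG-ABE8e and 19, 8 and 8 with SpG-ABEmax, which is 0.118%, 0.127% and 0.0762% against 0.533%, 0.253% and 0.293% of reads. The controls held 0, 1 and 0 such reads. The editors did not overlap, with means of 0.107% and 0.359% (exact permutation p = 0.1, adjusted p = 0.133 over 4 tests that were not planned). Without SpG-ABEmax replicate 1 the difference of means went from -0.253 to -0.166 percentage points. Including bases outside the window, these deletions were 27 to 68 bases long with SpG-ABE8e and 20 to 76 with SpG-ABEmax. With SpG-ABEmax, 17 reads had lost the whole window, 12 of them in replicate 1, and 35 of 38 deletion reads had lost the target adenine. The same loss was seen in 9 of 16 deletion reads with SpG-ABE8e. The reads without the whole window had lost 46 to 76 bases in all with SpG-ABEmax, so they were not 1 allele.

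**Figure D5:**
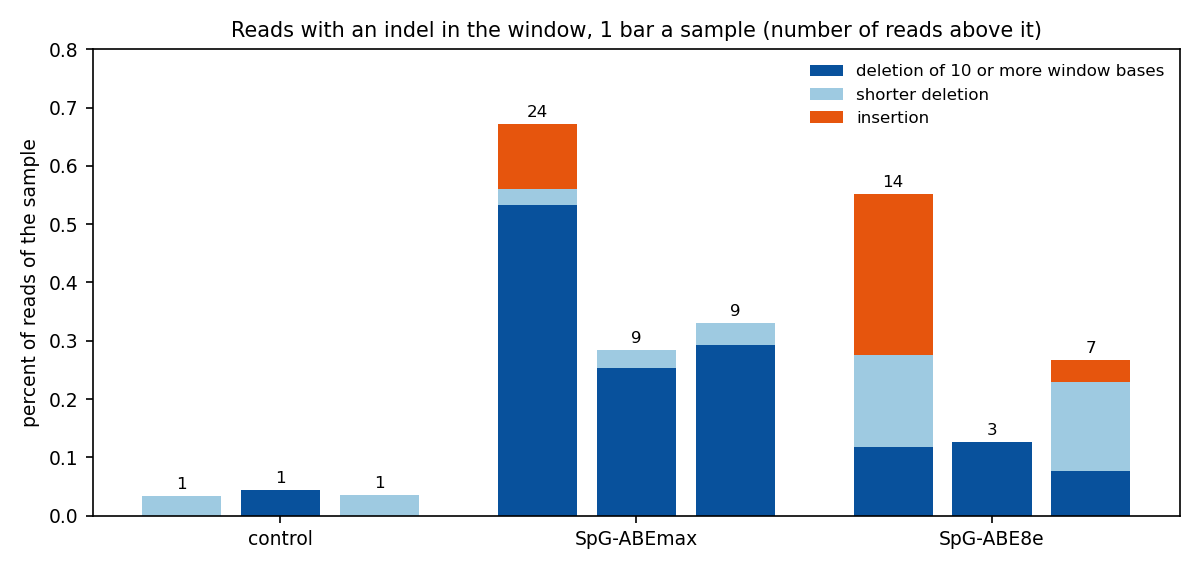
Reads with an indel in the window as percent of all reads, 1 bar for each sample, divided into deletions of 10 or more window bases, shorter deletions and insertions, with the number of indel reads above the bar. Long deletions are 0.253% to 0.533% of reads in the SpG-ABEmax bars and 0.0762% to 0.127% in the SpG-ABE8e bars, while insertions are mostly in SpG-ABE8e replicate 1.

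Insertions numbered 7, 0 and 1 reads with SpG-ABE8e, 4, 0 and 0 with SpG-ABEmax and 0 in the controls. Of these 12 reads, 9 were aligned with the insertion between positions 10 and 11, and 7 of the 9 ended in a copy of positions 5 to 10. In 3 reads the copy reached back to position 1, and all 3 had the target edit inside the copy. They are shown because the edited base stands in the inserted bases. Capitals mark the copy of positions 1 to 10, and the aligner may have placed either copy as the insertion. In the SpG-ABEmax read the lower-case bases are also a copy, of the 10 window bases before position 1, and the line shows the 20 inserted bases that lie in the window of 40 inserted in all.
SpG-ABE8e replicate 1: gcgAATGCCTGCG
SpG-ABE8e replicate 1, second read: gcctgAATGCCTGCG
SpG-ABEmax replicate 1: gatgagcgtgAATGCCTGCG

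The same sgRNA was also used with SpCas, which allows a comparison of the forms of Cas9 at this site. SpCas-ABE8e edited the target in 87.8%, 88.8% and 89.6% of reads and SpCas-ABEmax in 78.9%, 75.5% and 75.1%, each above the SpG samples with the same deaminase, by 21.1 and 29.5 percentage points (exact permutation p = 0.1 for each, adjusted p = 0.12). ABE8e exceeded ABEmax by 12.2 percentage points with SpCas and by 20.6 with SpG. The difference of -8.39 between these gains had a p of 0.585 in an exact permutation over 400 arrangements (adjusted p = 0.878). The arrangements exchange the Cas9 labels within each deaminase. SpCas lay above SpG with both deaminases, so exchanging the labels under a single deaminase gives a larger difference. This p therefore cannot decide whether the gains differ. A2G among target-edited reads was 23.4%, 22.8% and 23.1% with SpCas-ABE8e, 3.45 times the mean of SpG-ABE8e (exact permutation p = 0.1, adjusted p = 0.12). Editing of the target alone followed another order, at 63.3% ± 0.861 with SpCas-ABE8e and 71.8% ± 2.50 with SpCas-ABEmax (SD, n = 3), against 60.3% ± 1.68 and 45.3% ± 4.49 with SpG.

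The donors of exons 7 and 3 also have the target adenine at position 4, with sgRNA6 and the PAM TGG at exon 7 and sgRNA3 and the PAM TGC at exon 3. With SpG, ABE8e exceeded ABEmax by 56.8 percentage points at exon 7 (76.9% ± 1.03 against 20.1% ± 2.44, SD, n = 3). This gain was larger than the 20.6 of exon 8 by 36.2 percentage points (exact permutation over 400 arrangements, p = 0.005, the smallest they can give, adjusted p = 0.015 over 3 tests). Every exon 7 sample lay above every exon 8 sample with ABE8e and below every exon 8 sample with ABEmax. The arrangements exchange site labels within each editor. This p therefore bears on whether the sites are alike under both editors, and is not a test of equal gains alone. At exon 3 the gain was 21.1 (92.9% ± 1.02 against 71.8% ± 1.30, SD, n = 3), which differed from that of exon 8 by 0.466 (exact permutation p = 0.945, adjusted p = 0.945). Exon 3 lay above exon 8 with both editors. A p from exchanging the site labels within each editor therefore cannot decide here whether the gains differ. The highest level with SpG-ABE8e was thus at exon 3 and the lowest at exon 8, while with SpG-ABEmax exon 7 was the lowest, and the SDs of neighbouring sites did not overlap in either order.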

How the data were processed

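The authors amplified the locus in a 2-step PCR, sequenced it on an Illumina MiSeq and aligned reads to the amplicon with CRISPResso2, whose version is not given in the sources used here. The deposited tables give a count of reads for each allele of a 40-base window, not normalized, and the percent of reads, the count divided by the total of the table. Per-allele tallies of inserted, deleted and substituted bases are listed too and reach beyond the window. No molecular identifiers were used, so intervals and limits cover counting error only.

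Alleles were turned to the sgRNA strand and every share was computed over all reads of a sample. Nothing was filtered out. The sample was the unit, and the design text states 3 biological replicates. Groups came from the labels. Groups of 3 were compared by exact permutation tests over 20 arrangements, two-sided with the smaller tail doubled, with Benjamini-Hochberg adjustment over 18 tests. Differences of gains used 400 arrangements, two-sided by size. A further 44 tests were chosen after the data were seen. The window was placed on GRCm39 by its sequence, since no build is named for these amplicons. The protospacer was read from the list of sgRNA oligonucleotides.

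Named changes were the 5 adenines and any substitution for which the mean of a group exceeded the highest sample of another by over 0.2 percentage points. Named alleles had a mean of at least 0.2% in a group. The members and lists were chosen with earlier results of these data known.

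No 2 tables were identical. Within groups, a chi-square test of allele counts gave p = 0.0591 for SpG-ABE8e replicates 1 and 2 and 0.0505 for SpG-ABEmax replicates 2 and 3, against 0.0063 or less for the other edited pairs. The former pair differed in indel reads (Fisher's exact p = 0.0135), as did SpG-ABEmax replicates 1 and 2 (Fisher's exact p = 0.0234). The 3 control pairs gave 0.292 to 0.899. All samples were kept as separate replicates. In a check on simulated data, 30 tables of 3000 reads each, 120 of 120 known rates were recovered within 4 binomial standard errors, allowing for deletions of the base. No simulated deletion removed the target adenine or reached an edge of the window, so the check does not cover such deletions. Python 3.11.15, numpy 2.4.6 and scipy 1.17.1 were used.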

Additional observations from a re-analysis of the deposited data

Results flagged for a closer look

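With SpG, the gain of ABE8e over ABEmax in target editing was larger at the exon 7 donor than at the exon 8 donor, by 36.2 percentage points (56.8 against 20.6, exact permutation p = 0.005). Exon 7 lay above exon 8 with ABE8e (means of 76.9% and 67.6%) and below it with ABEmax (20.1% and 47.0%), without overlap. The arrangements exchange site labels within each editor, so this p bears on whether the sites are alike under both editors. It is not a test of equal gains alone.

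The share of reads with the target edit as the only change of the protospacer moved in opposite directions with the deaminase under the 2 forms of Cas9. With SpCas it was lower with ABE8e than with ABEmax (difference of means -8.50 percentage points), in every pair of samples, while with SpG it was higher by 15.03 in every pair. The difference of -23.5 percentage points had an exact permutation p of 0.1 (adjusted p = 0.2 over 4 tests chosen after the data were seen). SpCas lay above SpG in this share with both deaminases, by 2.98 percentage points with ABE8e and 26.5 with ABEmax. Exchanging the Cas9 labels under a single deaminase therefore gives a larger difference, so this p cannot decide whether the gains differ. Target editing and A2G with each editor are given above, and their part in this pattern was not tested.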

How the results depend on the processing

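The 18 tests of the family and the 3 differences of gains were recomputed as 278 alternative values, of which 274 kept the direction and the side of 0.05. Since 3 against 3 cannot pass 0.05, this bears on direction and size. ABE8e minus ABEmax in target editing with SpG ran from 18.4 to 23.1 percentage points without 1 replicate and from 19.8 to 20.9 otherwise, and in A2G from 3.64 to 3.93 and from 3.63 to 3.85. The indel share turned direction between the editors, as it ran from -0.232 to 0.00769 percentage points without 1 replicate. Indel reads with SpG-ABE8e minus the control came to 0 with only alleles of at least 0.2% of reads, since no indel allele of these groups reaches that share. The gain at exon 3 minus that at exon 8 ran from -1.96 to 2.74 without 1 replicate, and the cause was not tested. Outside these 21, A16G turned direction without SpG-ABE8e replicate 3, with a range of -0.00434 to 0.0509 over the samples left out. With only alleles of at least 0.2% of reads, A16G, A20G and C5T came to 0, as did A20G with alleles of at least 2 reads. Substitutions that did not overlap between the editors fell from 14 to 8 with alleles of at least 2 reads and to 3 with alleles of at least 0.2% of reads. Against the control they fell from 31 to 12 and 4 with SpG-ABE8e, and from 24 to 10 and 4 with SpG-ABEmax. Averaging the closest replicate pair of each group, chosen after the data were seen, changed no direction.

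With the replicate number as a block (replicate block), target editing differed by 20.6 percentage points with an exact sign-flip p of 0.25, the smallest 3 pairs allow. The numbers were not treated as pairing the samples, because correlations of same-numbered deviations ran from -0.151 to 0.159, and the block changed no other call. Subtracting controls gives no value for shares of target-edited reads, and removing indel reads or substitutions other than A-to-G gives none for measures made of them. These depths limit changes below about 0.13% of reads.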
